A study of Mus musculus with 8 samples.

Results

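The genes described here are 8 stress-inducible genes of mouse blood progenitors: Gadd45a, Gadd45b, Gadd45g, Ppp1r15a, Ier3, Ier5, Plk2 and Plk3. They were chosen by symbol from the gene name column of the deposited count table, where all 8 of 54532 gene rows were found, and all 8 passed the filter on low counts. The choice was made with earlier results of these data known. RNA was sequenced from bone marrow LSK cells, the lineage-negative, Sca-1 and c-Kit positive cells that include stem cells and early progenitors, of C57BL/6 mice. There were 3 libraries from mice of genotype Runx1-Runx1t1 (AML1/ETO, the fusion made by the t(8;21) translocation of acute myeloid leukaemia) and 5 from wild-type (WT) control mice. Both groups had received poly(I:C), an interferon-raising double-stranded RNA analogue, in 4 injections of 5 mg/kg given on alternate days, and cells were sorted 4 weeks after. The sources used here give neither the age of the mice nor the promoter or recombinase that drives the fusion. Nothing in the labels says whether each replicate is its own animal, and p-values therefore reflect only the variation among these samples, which may be technical.

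These genes share fast induction by stress, cytokines or growth factors rather than a common protein fold. The GADD45 proteins are small adaptors that bind the kinase MAP3K4 to start p38 and JNK signalling and that also bind PCNA and the CDK1 and cyclin B1 complex. PPP1R15A, also called GADD34, brings protein phosphatase 1 to the translation factor eIF2 alpha and so restores protein synthesis after stress. IER3 and IER5 are products of immediate early genes, and PLK2 and PLK3 are the stress-inducible Polo-like kinases, unlike the mitotic PLK1. In haematopoietic cells Gadd45a is best known as a p53 target, Gadd45b as a target of NF-kappaB, and Gadd45g as a cytokine-induced gene.

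The sequences before the transcription start were read from RefSeq (GRCm38.p6, the assembly that mm10 denotes) because the members include both genes that rose strongly and genes that did not. All 8 genes matched the table, and the 250 bases before each start were searched on both strands. The cyclic AMP response element TGACGTCA, the site of CREB and ATF proteins, was in the window of 2 members, Ppp1r15a and Plk2, and in 1.55% of 32841 windows of the same length over all genes. The 3 windows below belong to the genes with the largest rise, the second largest rise and the smallest rise that passed the test. Capitals mark TGACGTCA in Ppp1r15a, at chr7:45526269-45526518 on the minus strand, and in Plk2, at chr13:110394794-110395043 on the plus strand, and the TATA box letters TATAAA in Gadd45g, at chr13:51846425-51846674 on the plus strand.
Ppp1r15a: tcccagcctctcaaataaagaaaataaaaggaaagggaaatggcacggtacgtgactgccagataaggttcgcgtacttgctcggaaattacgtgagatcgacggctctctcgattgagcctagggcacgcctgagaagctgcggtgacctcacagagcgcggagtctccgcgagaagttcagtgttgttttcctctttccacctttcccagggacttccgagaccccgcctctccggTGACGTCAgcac
Gadd45g: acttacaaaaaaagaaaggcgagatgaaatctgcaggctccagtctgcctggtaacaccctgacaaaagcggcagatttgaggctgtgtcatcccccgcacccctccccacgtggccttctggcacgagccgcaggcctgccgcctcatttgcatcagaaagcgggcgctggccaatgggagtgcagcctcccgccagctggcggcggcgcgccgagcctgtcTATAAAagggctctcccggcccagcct
Plk2: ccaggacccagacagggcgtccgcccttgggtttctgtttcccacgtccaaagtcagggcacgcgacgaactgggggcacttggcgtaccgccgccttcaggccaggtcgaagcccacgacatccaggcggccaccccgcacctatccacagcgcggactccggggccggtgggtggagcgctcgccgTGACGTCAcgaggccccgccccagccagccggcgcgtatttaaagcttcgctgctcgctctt

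The element lay 12 to 5 bases before the start in Ppp1r15a and 62 to 55 bases before it in Plk2. Its core TGACG, which is part of it, was in the windows of 3 members, with matches in Plk3 besides those 2, and in 17.8% of all windows. TATAAA was in the windows of Gadd45b, 46 to 41 bases before the start, and Gadd45g, 27 to 22 bases before it, and in 12.4% of all windows. Of RUNX sites only the letters TGTGGT were searched, and they were in none of the 8 windows, against 14% of all windows. The variant TGCGGT was not searched over all windows, and it is present in Ppp1r15a and, on the opposite strand, in Ier5. The AP-1 letters TGANTCA were also in none of the 8 windows, against 6.75%. The NF-kappaB consensus matched in Ier3 alone, at 92 to 83 bases before the start on the opposite strand, against 7.25% of all windows, and the serum response (CArG) box matched in none, against 1.47%. A match describes the letters only, and a missing match says only that these letters are not in this window.

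The question put to the libraries was how RNA levels differ between cells with and without the fusion. The AML1/ETO libraries held 14693080 to 16433454 counted reads and the control libraries 16374232 to 17527043. On the first principal component of log2 CPM (read counts scaled for sequencing depth and library composition), with 44% of the variance, the groups separated. The second component, with 14.3%, placed the first library of each group away from the remaining ones. Of genes with 20 to 50 reads expected, 41.4% to 51.1% were at 0 in AML1/ETO libraries, 46.2% in control library 1 and 10.5% to 27% in the other controls. Sex-linked RNA differed too: Xist had 28559 to 33151 reads in AML1/ETO cells against 0 to 111 reads in control cells, so genotype and sex cannot be told apart. Runx1t1, the ETO part of the fusion, stood at 53.9 to 123 CPM in AML1/ETO cells and 1.58 to 7.69 CPM in control cells. Of 15009 tested genes, 11.6% were called higher and 14.2% lower, 25.7% in either direction, at an adjusted p under 0.05 (edgeR quasi-likelihood test with Benjamini-Hochberg adjustment). Of all called genes 44.9% were higher, 34.2% with library totals as the only scaling, 49.9% with DESeq2 size factors and 51.3% with limma-voom.

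Of the 8 stress genes, 6 rose in the AML1/ETO libraries, against 11.6% of all tested genes called higher (25.7% called in either direction): Ppp1r15a, Gadd45g, Gadd45b, Plk3, Ier5 and Plk2. In each of these 6 every AML1/ETO library lay above every control library, which was so for 14.1% of all tested genes. The 8 genes were chosen with earlier results of these data known, so these shares do not test an independent set. Ier3 and Gadd45a were not called, and none of the 8 was called lower by edgeR, nor at an unadjusted p under 0.05, by DESeq2 or by limma-voom. Summed over the 8 genes, the level was 2581 to 2903 CPM in AML1/ETO libraries and 475 to 732 CPM in controls. Ppp1r15a alone supplied 45.9% to 48.4% of the reads of the 8 genes in AML1/ETO libraries and 12.7% to 18.9% in controls. In bulk RNA, more cells of a type and more RNA per cell cannot be told apart.

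**Figure D1:**
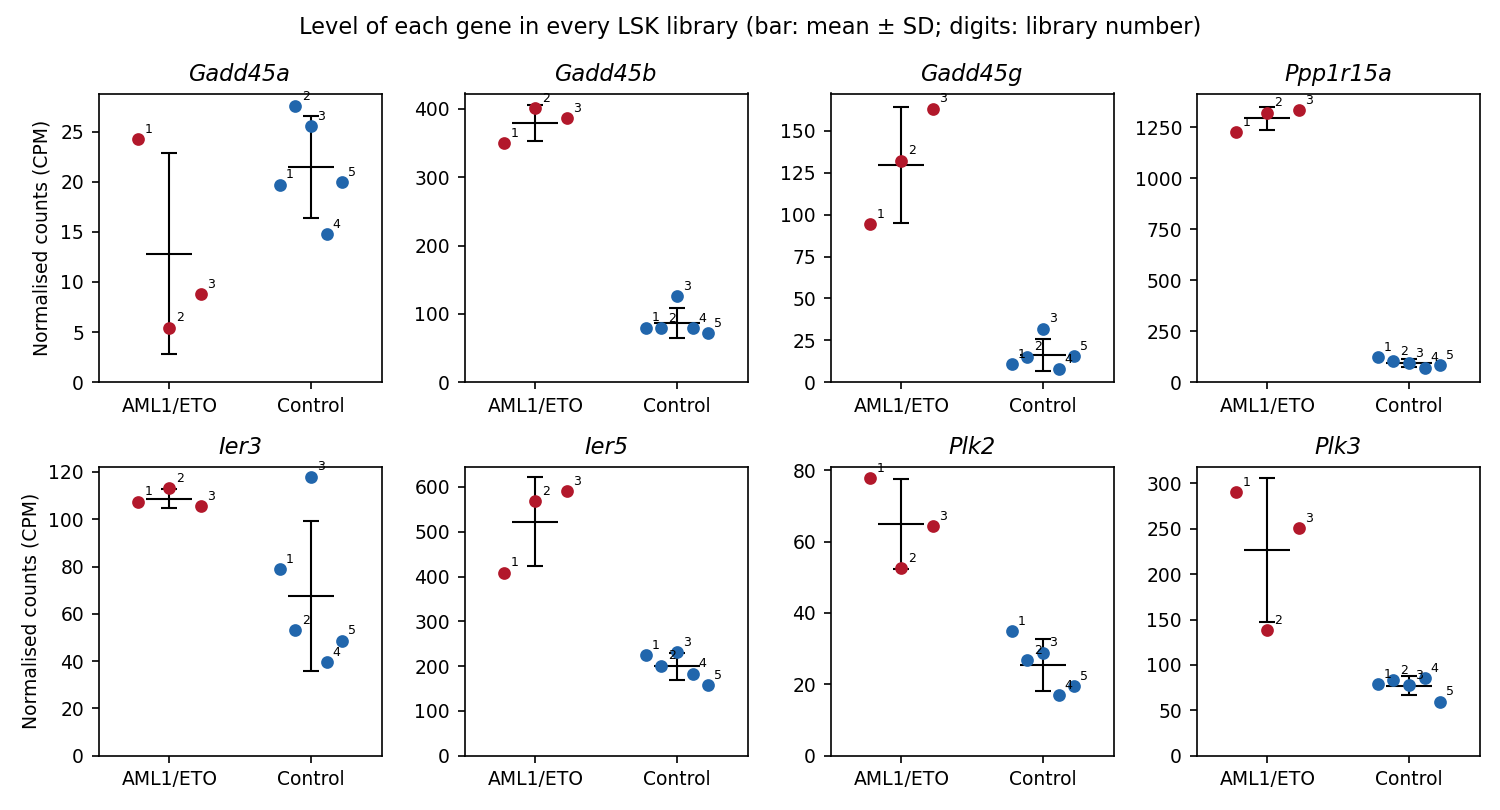
Level of each of the 8 genes in CPM (vertical axes, linear from 0) in each of 3 AML1/ETO and 5 control libraries; points are libraries, digits their replicate numbers, and bars the mean ± SD. In Ppp1r15a, Gadd45b, Gadd45g, Ier5, Plk2 and Plk3 the AML1/ETO points lie above all control points, whereas in Gadd45a and Ier3 the groups overlap.

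Ppp1r15a (ENSMUSG00000040435, protein-coding, chromosome 7, 45522916 to 45526268, minus strand, mm10), the eIF2 alpha phosphatase subunit, had the largest difference of the 8. It had 1228, 1322 and 1333 CPM in AML1/ETO libraries 1 to 3, against 123, 103.9, 93.3, 71.8 and 82.7 CPM in control libraries 1 to 5. The AML1/ETO libraries lay close together, with a coefficient of variation of 4.49%, against 20.6% among the controls, and the lowest of them was 10.02-fold above the highest control. Ppp1r15a averaged 1294.5 ± 58.1 CPM in AML1/ETO libraries (SD, n = 3) and 94.8 ± 19.6 CPM in controls (SD, n = 5), a 13.6-fold rise (log2 fold change 3.77, SE 0.18, edgeR adjusted p = 1.41e-07). By log2 fold change it ranked 255 of 15009 genes from the top. A stretch of 12 exon bases is shared with Tulp2 on the other strand, which had 0 to 109 reads in any library.

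Gadd45b (ENSMUSG00000015312, protein-coding, chromosome 10, 80930073 to 80932204, plus strand) encodes the GADD45 adaptor that NF-kappaB induces to restrain JNK-driven death. Its AML1/ETO libraries had 349.7, 401 and 386.8 CPM, against 79.8, 78.8, 126, 79.2 and 71.4 CPM in control libraries 1 to 5. Control library 3 stood above the other controls and was still 2.78-fold below the lowest AML1/ETO library. The means were 379 ± 26.5 CPM in AML1/ETO libraries (SD, n = 3) and 87.0 ± 21.96 CPM in controls (SD, n = 5), a 4.36-fold rise (log2 fold change 2.12, SE 0.19, edgeR adjusted p = 1.57e-05).

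Gadd45g (ENSMUSG00000021453, protein-coding, chromosome 13, 51846678 to 51848468, plus strand), the cytokine-induced family member, stood at 94.2, 132 and 163 CPM in AML1/ETO libraries 1 to 3. The controls stood at 10.9, 15.2, 31.9, 7.74 and 15.6 CPM. Library 3 was the highest of the controls here as well, and the groups did not overlap. Gadd45g rose 7.97-fold, to 129.9 ± 34.6 CPM in AML1/ETO libraries (SD, n = 3) against 16.3 ± 9.34 CPM in controls (SD, n = 5; log2 fold change 2.995, SE 0.38, edgeR adjusted p = 0.000194).

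Gadd45a (ENSMUSG00000036390, protein-coding, chromosome 6, 67035096 to 67037457, minus strand), is the p53-inducible family member, and its groups overlapped. It had 24.2, 5.44 and 8.76 CPM in AML1/ETO libraries 1 to 3, against 19.7, 27.6, 25.5, 14.8 and 19.96 CPM in controls 1 to 5. AML1/ETO libraries 2 and 3 lay below every control and library 1 lay among them. Its log2 fold change was −0.75 (SE 0.47, edgeR adjusted p = 0.279), with 12.8 ± 10.03 CPM in AML1/ETO libraries and 21.5 ± 5.09 CPM in controls (SD, n = 3 and 5). Without AML1/ETO library 1 it fell by 1.61 on the log2 scale and passed the test (edgeR adjusted p = 0.0154). Gadd45a shares 337 exon bases with the transcript E230016M11Rik on the other strand, which had 97, 262 and 80 reads in AML1/ETO libraries 1 to 3 and 27, 38, 5, 0 and 0 in control libraries 1 to 5. Whether the counting used strand is not stated, so reads of that pair may not have been told apart, and its part in the result was not tested.

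Ratios of reads within a library do not depend on how libraries are scaled, and they set the 3 GADD45 genes apart in pairs. The log2 ratio of Gadd45b to Gadd45a was 5.17 ± 1.2 in AML1/ETO libraries and 2.02 ± 0.36 in controls, a difference of 3.15. That of Gadd45g to Gadd45a was 3.59 ± 1.43 in AML1/ETO libraries and −0.54 ± 0.53 in controls, a difference of 4.12. That of Gadd45b to Gadd45g was lower with the fusion, at 1.58 ± 0.32 in AML1/ETO libraries and 2.55 ± 0.55 in controls, a difference of −0.97 (SD, n = 3 and 5 throughout). In all 3 pairs the groups did not overlap. Each gave p = 0.0357 in a two-sided exact permutation test of the libraries, the smallest value that 56 assignments allow, and p = 0.0595 after adjustment over the 5 pairs compared. At the threshold of 0.05 none of the 3 differences therefore passed the adjusted test. With only these 3 of the 5 pairs at the smallest p, no lower adjusted value was possible, so the adjusted test cannot decide here.

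Ier5 (ENSMUSG00000056708, protein-coding, chromosome 1, 155096361 to 155099636, minus strand) is a single-exon immediate early gene whose product works with protein phosphatase 2A and the heat shock factor HSF1. AML1/ETO libraries 1 to 3 had 409, 568 and 590.4 CPM, against 224, 201, 231, 183 and 158 CPM in control libraries 1 to 5. Every AML1/ETO library exceeded every control by 1.77-fold or more. Ier5 rose 2.62-fold (522 ± 99.0 CPM in AML1/ETO libraries, n = 3, and 199.5 ± 29.9 CPM in controls, n = 5, SD; log2 fold change 1.39, SE 0.17, edgeR adjusted p = 0.000153).

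Ier3 (ENSMUSG00000003541, protein-coding, chromosome 17, 35821684 to 35822923, plus strand) encodes a survival-linked target of NF-kappaB, also called IEX-1. Its AML1/ETO libraries were nearly level, at 107.5, 113 and 105.6 CPM, whereas the controls were spread widely, at 78.8, 53.1, 118, 39.6 and 48.6 CPM. Control library 3 lay above all AML1/ETO libraries and the other 4 controls lay below them. The mean was 109 ± 3.98 CPM in AML1/ETO libraries and 67.6 ± 31.7 CPM in controls (SD, n = 3 and 5), and the difference did not pass (log2 fold change 0.69, SE 0.31, edgeR adjusted p = 0.123). It passed without control library 3 (log2 fold change 1.02, edgeR adjusted p = 0.012) and with limma-voom (0.93, adjusted p = 0.0303). The log2 ratio of Ier3 to Ier5 was −2.25 ± 0.29 in AML1/ETO libraries and −1.66 ± 0.47 in controls (SD), with overlapping groups (exact permutation p = 0.0714, adjusted 0.0893).

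Plk2 (ENSMUSG00000021701, protein-coding, chromosome 13, 110395046 to 110400844, plus strand) encodes a Polo-like kinase of G1 phase and centriole duplication. It had 77.8, 52.5 and 64.2 CPM in AML1/ETO libraries 1 to 3, against 34.9, 26.7, 28.9, 17.1 and 19.4 CPM in controls 1 to 5. The groups did not overlap, and the nearest libraries differed 1.51-fold. Plk2 rose 2.55-fold, with 64.9 ± 12.7 CPM in AML1/ETO libraries and 25.4 ± 7.21 CPM in controls (SD, n = 3 and 5; log2 fold change 1.35, SE 0.27, edgeR adjusted p = 0.00306).

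Plk3 (ENSMUSG00000028680, protein-coding, chromosome 4, 117128655 to 117133963, minus strand) encodes a Polo-like kinase activated by DNA damage and osmotic stress. Its AML1/ETO libraries were uneven, at 291, 138 and 251 CPM, with library 2 lowest but above all controls, which had 78.9, 83.3, 78.0, 85.3 and 59.5 CPM. It rose 2.94-fold, with 227 ± 79.2 CPM in AML1/ETO libraries and 77.0 ± 10.2 CPM in controls (SD, n = 3 and 5; log2 fold change 1.56, SE 0.22, edgeR adjusted p = 0.000427). The log2 ratio of Plk2 to Plk3 was −1.75 ± 0.31 in AML1/ETO libraries and −1.64 ± 0.42 in controls (SD), a difference of −0.12 that was within the spread of either group (exact permutation p = 0.714, also 0.714 after adjustment). Plk3 shares 84 exon bases with Tctex1d4 on the other strand, which had no read with AML1/ETO and 0 to 47 reads in control libraries.

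**Figure D2:**
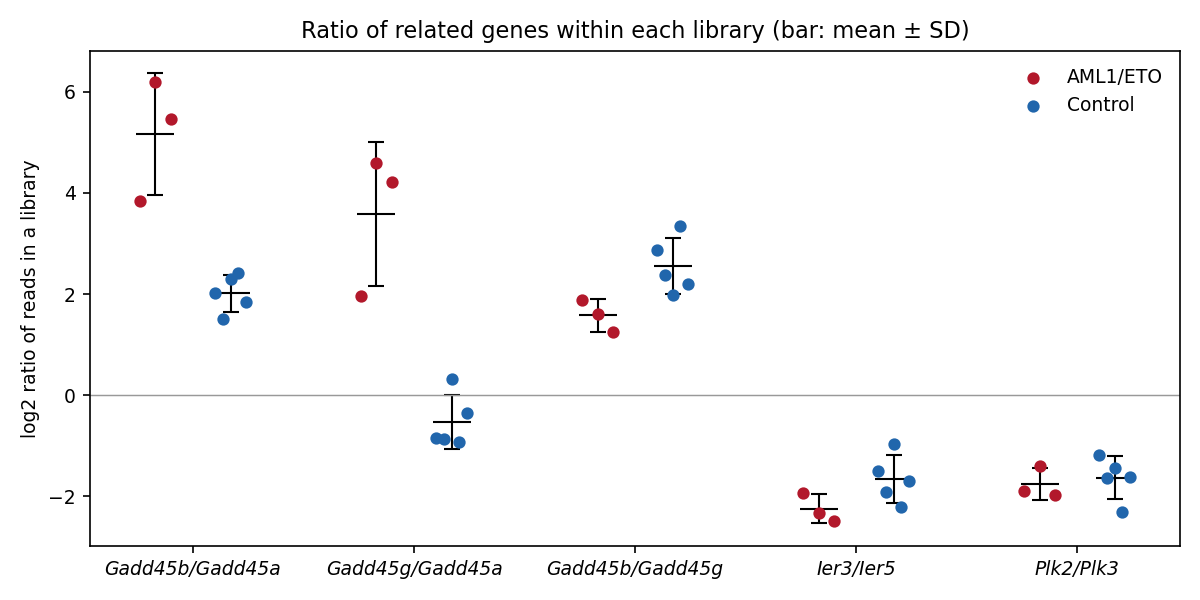
Log2 ratio of reads of related genes within each library (vertical axis) for the 5 pairs compared; points are libraries, AML1/ETO left of control in each pair, and bars the mean ± SD. Both ratios to Gadd45a are higher in every AML1/ETO library, with means of 5.17 and 3.59 against 2.02 and −0.54 in controls, and the Plk2 to Plk3 ratio overlaps between the groups.

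**Figure D3:**
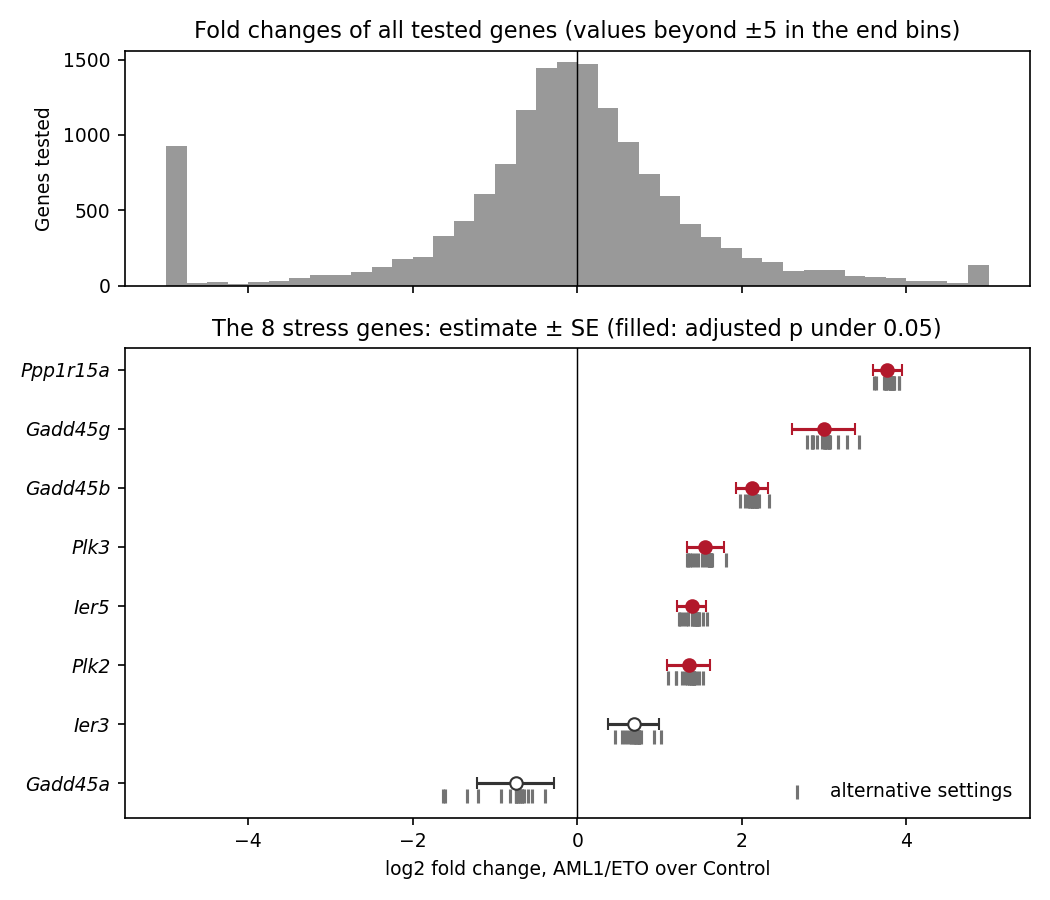
Upper panel: number of tested genes (vertical axis) by log2 fold change of AML1/ETO over control, for all 15009 genes. Lower panel: the 8 stress genes with estimate ± SE (circles, filled where adjusted p was under 0.05) and grey ticks for 18 alternative settings each; Ppp1r15a stays between 3.61 and 3.91, and Gadd45a spans −1.63 to −0.39.

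The order of the 8 genes differed between the groups when levels were divided by exon length (CPM per kilobase of merged exons). In AML1/ETO libraries Ppp1r15a led at 441 ± 19.8, followed by Gadd45b at 239 ± 16.7, Ier5 at 159 ± 30.2, Gadd45g at 111 ± 29.5, Ier3 at 96.2 ± 3.52, Plk3 at 89.5 ± 31.3, Plk2 at 14.4 ± 2.82 and Gadd45a at 7.26 ± 5.69 (SD, n = 3). The libraries of Gadd45g, Ier3 and Plk3 overlapped, as did those of the neighbours Ier5 and Gadd45g and of Plk2 and Gadd45a, whereas those of Ppp1r15a, Gadd45b and Ier5 did not overlap. In controls Ier5 at 60.9 ± 9.14, Ier3 at 59.8 ± 28.03 and Gadd45b at 54.8 ± 13.8 were within their spread of each other, followed by Ppp1r15a at 32.3 ± 6.66 and Plk3 at 30.4 ± 4.04, which also overlapped, then Gadd45g at 13.9 ± 7.97 and Gadd45a at 12.2 ± 2.88, and last Plk2 at 5.65 ± 1.61 (SD, n = 5). The steps of this control order overlapped as well: Ier3 with Ppp1r15a, Gadd45g with both Ppp1r15a and Plk3, and Gadd45g with Plk2. Gadd45a and Plk2 did not overlap there.

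The libraries differed among themselves in the same direction for several of the genes. AML1/ETO library 1 was the lowest of its group for Gadd45b, Gadd45g, Ppp1r15a and Ier5 and the highest for Gadd45a, Plk2 and Plk3. Control library 3 was the highest control for Gadd45b, Gadd45g, Ier3 and Ier5, and control library 4 was the lowest for Gadd45a, Gadd45g, Ppp1r15a, Ier3 and Plk2. Without both libraries numbered 1, the same number of genes, 6, was called higher, and 1, Gadd45a, was called lower.

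For each member the 3 genes with the most similar profile over the 8 libraries were sought among 9275 protein-coding genes. The measure was the root-mean-square (RMS) difference of log2 CPM profiles centred on their own means. The nearest genes lie below the median of the candidates by selection. The profiles hold the difference between the groups, so genes of like fold change come out near. Ppp1r15a was nearest to Rnf180 (0.199 in log2 units), Btg2 (0.257) and Zfp36 (0.258), the last an mRNA decay factor, against a median of 1.96 for all candidates. Gadd45g was nearest to the kinase gene Pim1 (0.34) and the cytokine signalling inhibitor Socs3 (0.387), with a median of 1.73. Gadd45b was nearest to the antiproliferative gene Btg1 (0.19) and Gadd45a to Relb (0.17), which encodes an NF-kappaB subunit. Within the AML1/ETO group Relb, like Gadd45a, was highest in library 1, with 189, 38.7 and 76.1 CPM in AML1/ETO libraries 1 to 3 and 135 to 216 CPM in controls. Plk3 was nearest to the glucose transporter gene Slc2a3 (0.0646), Plk2 to Sertad1 (0.215), Ier5 to Rad51d (0.116) and Ier3 to Ttll12 (0.226). Among the members themselves the closest profiles were those of Ier5 and Plk2 (0.332) and of Plk2 and Plk3 (0.342), and the farthest those of Gadd45a and Ppp1r15a (2.4).

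Calls among the partners of the GADD45 proteins went both ways and were near the shares over all tested genes (11.6% higher, 14.2% lower). The same shares are the background for the counts of each list below. The lists, like the stress genes, were chosen with earlier results of these data known. Of 16 genes for stress MAP kinases and bound cell cycle proteins 2 rose and 3 fell. Their median log2 fold change was 0.15, against −0.094 for all tested genes. The median was below 0 without AML1/ETO library 1 (−0.0035) or library 2 (−0.196). Ccnb1 and Cdk1, which form the mitotic kinase that GADD45 proteins inhibit, both fell. Ccnb1 stood at 11.3 ± 6.63 CPM in AML1/ETO libraries and 39.3 ± 9.95 CPM in controls (log2 fold change −1.80, edgeR adjusted p = 0.00552), and Cdk1 at 17.8 to 55.8 CPM in AML1/ETO libraries and 77.6 to 103.5 CPM in controls (−1.44, adjusted p = 0.00893). Map2k7, the JNK kinase that GADD45B binds, rose to 134 ± 11.02 CPM in AML1/ETO libraries against 80.0 ± 13.4 CPM in controls (log2 fold change 0.74, edgeR adjusted p = 0.00899), and the p38 kinase Mapk11 rose to 47.7 ± 16.7 CPM in AML1/ETO libraries against 5.91 ± 4.61 CPM in controls (3.01, adjusted p = 0.0236). The number that rose was 4 with DESeq2 and 1 without AML1/ETO library 1, without control library 1 or without control library 4, and 1 with the replicate block.

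Of 18 other genes around eIF2 alpha 3 rose and 5 fell, with a median log2 fold change of −0.25 against −0.094 for all tested genes. Atf3 and Ddit3 (CHOP), stress-induced transcription factors, rose, Atf3 to 595 ± 210 CPM in AML1/ETO libraries against 111 ± 44.9 CPM in controls and Ddit3 to 135 ± 48.5 against 56.1 ± 8.94 CPM (log2 fold changes 2.42 and 1.26). Trib3, a pseudokinase gene switched on by ATF4 and CHOP, fell to 10.2, 2.31 and 0 CPM in AML1/ETO libraries, against 50.1 to 103 CPM in controls (log2 fold change −4.37, edgeR adjusted p = 0.0041). Eif2s1, which encodes eIF2 alpha itself, fell to 62.7 ± 20.2 against 135 ± 11.5 CPM (−1.11). Chosen after their values were seen, Ppp1r15b, the constitutive relative of Ppp1r15a, fell (log2 fold change −0.53, edgeR adjusted p = 0.0347), and Ppp1cc, a catalytic subunit that binds both, rose (0.58, adjusted p = 0.00858). The number that fell was 2 or 3 with DESeq2 size factors, upper-quartile scaling, no filter or a filter of 1 CPM in 3 libraries. It was also 2 or 3 with the replicate block, and without AML1/ETO library 2 or 3 or any 1 control library. The balance then turned, to 2 lower and 3 higher, with DESeq2 size factors, upper-quartile scaling or no filter, and without AML1/ETO library 3 or control library 1, 2, 3 or 5.

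Of 10 other Polo-like kinase and partner genes 2 rose and 4 fell (median log2 fold change −1.12), and 1 rose without AML1/ETO library 2. Plk4, the kinase of centriole duplication, fell to 19.1 ± 12.5 CPM in AML1/ETO libraries against 76.9 ± 14.4 CPM in controls (log2 fold change −2.01), Aurkb, a mitotic kinase, to 17.3 ± 4.29 against 48.3 ± 8.45 CPM (−1.48), and the checkpoint kinase gene Chek1 to 5.33 ± 3.27 against 29.4 ± 12.0 CPM (−2.46). The checkpoint kinase gene Chek2 rose to 41.5 ± 20.6 against 10.7 ± 1.62 CPM (1.96, edgeR adjusted p = 0.0013). Plk1, chosen after its values were seen, was not called, at 10.8 ± 2.63 CPM in AML1/ETO libraries and 12.5 ± 5.35 CPM in controls (edgeR adjusted p = 0.79).

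Of 10 other IER genes and partners 1 rose and 4 fell (median log2 fold change −0.44). The gene that rose was Ier2, at 1734 ± 275 CPM in AML1/ETO libraries against 261 ± 30.4 CPM in controls (log2 fold change 2.73, edgeR adjusted p = 3.73e-07). The protein phosphatase 2A genes Ppp2ca and Ppp2r1a fell (log2 fold changes −0.58 and −0.76). Hsf1, chosen after its values were seen, stood at 82.4 ± 30.0 CPM in AML1/ETO libraries and 81.6 ± 6.47 CPM in controls and was not called (edgeR adjusted p = 0.978).

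Of 20 genes of p53 and its targets 3 rose and 3 fell, near the shares over all tested genes. Their median log2 fold change was −0.30. Btg2, an antiproliferative gene that is also induced within minutes of many stimuli, rose to 1188 ± 258 CPM in AML1/ETO libraries against 79.8 ± 22.9 CPM in controls (3.89). Sesn2, a stress-induced regulator of growth signalling, fell to 16.5 ± 6.54 against 81.3 ± 22.3 CPM (−2.30), and Pmaip1 (NOXA), a cell death gene, to 8.91 ± 4.11 against 30.7 ± 11.2 CPM (−1.79). Mdm4, a p53 inhibitor, rose (0.79, edgeR adjusted p = 0.00304). The p53 targets Cdkn1a and Mdm2, chosen after their values were seen, were not called (log2 fold changes 0.24 and 0.22, edgeR adjusted p = 0.498 and 0.382). With limma-voom 1 gene of the list fell.

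Of 14 tested NF-kappaB genes 6 rose and 2 fell (median log2 fold change 0.52). The feedback genes Tnfaip3, Nfkbiz and Nfkbia and the chemokine gene Cxcl2 rose, with log2 fold changes of 4.98, 3.31, 2.56 and 4.45. Other genes of the list, chosen after their values were seen, did not rise. Tnip1 (−1.41, edgeR adjusted p = 0.000286) and the subunit gene Nfkb1 (−0.93, edgeR adjusted p = 0.0293) fell. Nfkbib and Nfkbie were not called (log2 fold changes 0.02 and 0.13). The number that fell was 5 without AML1/ETO library 1, 4 with limma-voom, and 1 without AML1/ETO library 2 or 3 or without control library 1, 2 or 4. Of 21 immediate early genes known to respond to cell handling 17 rose and none fell by edgeR, DESeq2 or limma-voom, and 1 was lower at an unadjusted p under 0.05; without AML1/ETO library 1 the number that fell was 1. Their median log2 fold change was 2.76. Their summed level was 37468 to 52361 CPM in AML1/ETO libraries and 4413 to 6488 CPM in controls. Atf3, Ier2 and Btg2 are in this list and were also counted as risen in the eIF2 alpha, IER and p53 lists above. Nr4a1, Zfp36, Jun and Junb, early response genes with the smallest p of this list, had log2 fold changes of 3.20, 4.19, 4.32 and 3.97. The 4 genes not called, named after their values were seen, were Egr2, Egr3, Hspa1a and Hspa1b. Their log2 fold changes were −2.38, −1.09, −0.39 and 0.32. The part of cell handling in the rise of the 6 stress genes was not tested.

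**Figure D4:**
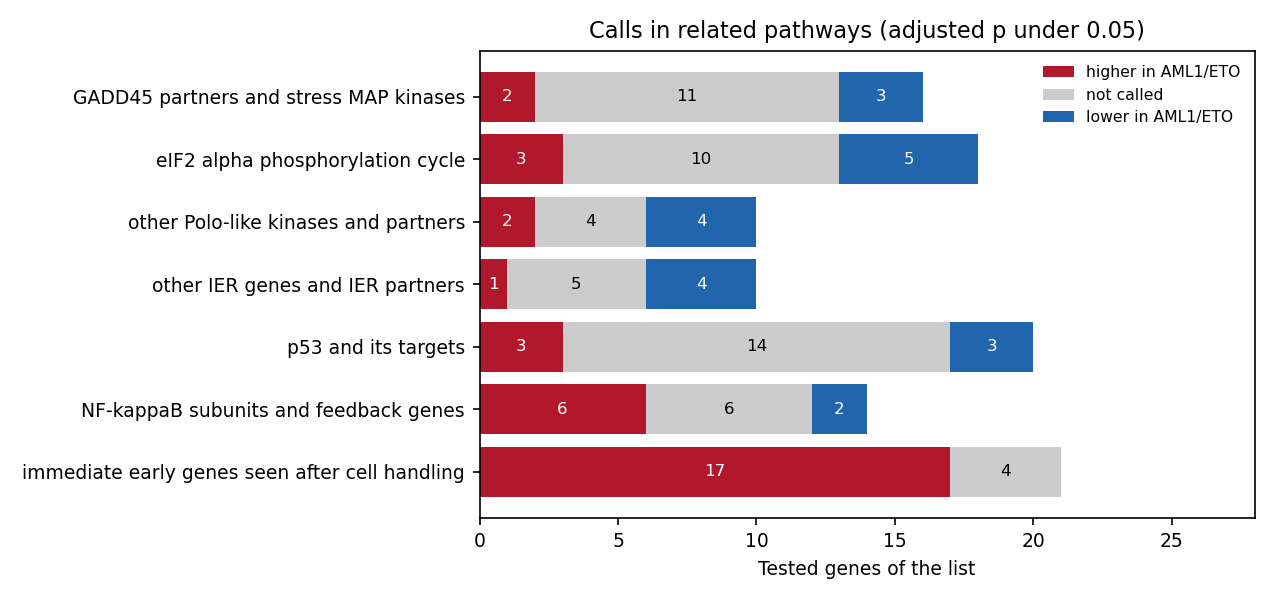
Number of tested genes (horizontal axis) called higher, not called or called lower in AML1/ETO against control in each of 7 related gene lists. The lists share genes: Atf3, Ier2 and Btg2 are counted again in the immediate early list, and Cdkn1a in both the GADD45 partner and p53 lists. Over all tested genes 11.6% were called higher and 14.2% lower. The lists were chosen with earlier results of these data known. The handling-responsive immediate early list has 17 of 21 genes higher, the Polo-like kinase list has 4 lower and 2 higher, and the eIF2 alpha list 5 lower and 3 higher, a balance that turns to 2 lower and 3 higher under several alternatives.

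Marker lists of LSK cells and of other bone marrow cells were also summed; the lineage-negative gate is meant to remove mature neutrophils, monocytes, B cells, T cells and erythroid cells. The LSK markers were present, with Kit at 913 to 1697 CPM in AML1/ETO libraries and 378 to 469 CPM in controls, but the RNA of Ly6a, which encodes Sca-1, was low in the controls; it had 221 to 921 CPM in AML1/ETO libraries and 8.26 to 23.4 CPM in controls. Of 9 LSK genes 7 rose and 1 fell. All 6 tested mast cell markers of 9 rose, and the summed level of the 9 was 2503 to 6862 CPM in AML1/ETO libraries and 24.2 to 71.1 CPM in controls. In AML1/ETO libraries most of that sum came from Cpa3, at 1771 to 6135 CPM, against 9.36 to 22.8 CPM in controls. The mast cell chymase gene Cma1 was at 0 in every control. Mcpt4 had 17.6, 0 and 0 CPM in AML1/ETO libraries 1 to 3. Tpsb2 had 25.7, 1.75 and 0 CPM there, and Tpsab1 had 8.40, 0 and 0 CPM. Mcpt4, Tpsb2 and Tpsab1 were at 0 in every control and were not tested. The neutrophil list summed to 0.0654 to 67.0 CPM in AML1/ETO libraries and 124 to 305 CPM in controls, with Cxcr2 at 0 in AML1/ETO libraries (3 of 7 tested genes fell). With the AML1/ETO libraries first, the macrophage and monocyte list summed to 43.2 to 63.3 against 112 to 181 CPM (2 of 6 fell, Cx3cr1 at 0). In the same order the B cell list summed to 5.3 to 10.8 against 76.4 to 222 CPM (4 of 6 fell, Ighm, Pax5 and Ebf1 at 0). The T and NK cell list summed to 5.22 to 9.31 against 60.9 to 116 CPM (1 of 2 fell). In controls most of that sum came from the gene that fell, Nkg7. It had 2.27 to 7.59 CPM in AML1/ETO libraries and 60.9 to 114 CPM in controls. The T cell genes Cd3d, Cd3e and Cd3g and the gene Gzma were at 0 in all 8 libraries. The basophil and eosinophil list summed to 1.37 to 26.3 CPM in AML1/ETO libraries and 10.3 to 75.1 CPM in controls, with Prss34, Prg2 and Epx at 0 in AML1/ETO libraries (3 of 4 fell). Erythroid markers overlapped, at 11.2 to 71.1 CPM in AML1/ETO libraries and 11.3 to 69.2 CPM in controls (1 of 6 rose and 1 fell), as did megakaryocyte markers, at 191 to 641 and 177 to 308 CPM (1 of 3 rose and 1 fell, Gp9 at 0 in AML1/ETO libraries). Most of the megakaryocyte sum came from the gene that rose, Itga2b, at 191 to 638 CPM in AML1/ETO libraries and 165 to 286 CPM in controls. Pf4 had 0 to 4.84 CPM in AML1/ETO libraries and 6.86 to 30.1 CPM in controls and was not called (edgeR adjusted p = 0.0587). The stromal and endothelial list summed to 349 to 458 CPM in AML1/ETO libraries and 151 to 196 CPM in controls, with both tested genes risen and Cdh5, Cxcl12 and Lepr at 0 in AML1/ETO libraries (Cdh5 in the controls too). A marker at 0 in all libraries of 1 group passed the low count filter through the other group alone. Its call could therefore go only 1 way. Zeros were also common among genes with 20 to 50 reads expected, at 41.4% to 51.1% in AML1/ETO libraries and 46.2% in control library 1. The part of the cell types listed here in the levels of the 8 stress genes was not tested.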

How the data were processed

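The authors deposited raw read counts per Ensembl gene, with 1 column per library. Per the submitters' processing notes the tools were HISAT2 2.0.5 and, for counting, featureCounts 1.5.0-p3, and the build was mm10. No source used here gives the annotation release, strand setting or treatment of multi-mapping reads, which decide how reads of overlapping genes were assigned. Libraries were grouped by their titles. Library totals were 14693080 to 17527043 reads, so each member had 87 reads or more in each library. The test was that of edgeR 4.0.16, run in R 4.3.3 (filterByExpr, TMM scaling, glmQLFit and glmQLFTest over all 8 libraries, no covariate, two-sided), with Benjamini-Hochberg adjustment over all 15009 genes and a threshold of 0.05; the standard error was derived from the F statistic. CPM values use TMM-scaled library sizes, and log2 CPM a prior count of 2. Ratios within libraries used 0.5 added to each count. Positions and exon lengths came from GENCODE M21, which held 54495 of the 54532 identifiers. The procedure was tested on simulated counts.

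The members, the 7 pathway lists and the 10 marker lists were chosen with earlier results of these data known. The text names up to 4 genes of a pathway list by smallest p, and others where marked; a gene that this rule took is not reported here. Alternatives were DESeq2 1.42.0, limma-voom (limma 3.58.1) with quality weights, 3 scalings, 2 filters, each library or both first libraries left out, and the replicate number as a block; leaving out genes on X and Y was added after seeing the data.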

Additional observations from a re-analysis of the deposited data

Results flagged for a closer look

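Among 13 sets of control values screened, 8 levels and 5 ratios, 2 had a library far from the other 4 by Dixon's criterion at the 95% level; chance flags about 1 in 20 such sets. Gadd45b stood at 126 CPM in control library 3, with a gap of 0.845 of the range of the controls, and this library was also the highest control for Gadd45g and Ier3. Plk3 stood at 59.5 CPM in control library 5, below the other controls, with a gap of 0.716 of their range. The AML1/ETO group has 3 libraries and was not screened.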

How the results depend on the processing

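Over 18 alternatives each, the fold changes of Ppp1r15a (3.61 to 3.91), Gadd45g (2.79 to 3.43), Gadd45b (1.98 to 2.33), Plk3 (1.33 to 1.81), Ier5 (1.24 to 1.58) and Plk2 (1.10 to 1.53) kept their direction and passed the test. Ier3 (0.69 as reported) passed with limma-voom (0.93) and ranged from 0.58 to 1.02 as single libraries were dropped; Gadd45a ranged from −1.61 to −0.39, and passed at −1.63 without both first libraries, so that 1 member was called lower (0 to 1 as single libraries were dropped). The cause was not tested. With the replicate block 951 genes were called higher and 1098 lower, against 1734 and 2128, whereas the number of stress genes called higher was 6 in both; Plk2 then had its highest adjusted p, 0.0413. Same-numbered libraries deviated from their group means with correlations of 0.0388, −0.039 and 0.0271, so the numbers were not taken as pairs. The first library of each group still lay apart on the second principal component, at 106.3 (AML1/ETO) and 102 (control), and the reason was not tested. Over all tested genes the median log2 fold change was −0.094, and −0.244 with library totals alone, −0.215 with limma-voom and −0.251 with no filter. For within-library ratios, leaving out a library gave 2.64 to 3.81 for Gadd45b to Gadd45a, 3.62 to 4.94 for Gadd45g to Gadd45a and −1.13 to −0.77 for Gadd45b to Gadd45g, and leaving out both first libraries gave 3.81, 4.86 and −1.05; with fewer libraries the exact permutation test cannot reach 0.05. The Plk2 to Plk3 difference became 0.072 without both first libraries. The median of the GADD45 partner list ranged from −0.196 to 0.25 over the same single omissions and was −0.0985 with the replicate block. The lowest count of any of the 8 genes was 87 reads.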
